A study of Homo sapiens with 9 samples.

Results

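The comparison set a pair of short hairpin RNAs (shRNAs) against ASXL2 directly against each other, in a human leukaemia cell line. Its members were the 6 of 9 samples of the series that carried either hairpin, 3 with the one labelled SH3 (shASXL2-3) and 3 with the one labelled SH2 (shASXL2-2). Each sample of one hairpin was compared with the sample of the other that bears the same number (1, 13 or 25), and no control sample stood on either side of the contrast. All samples, the 3 controls included, were SKNO-1 cells, an acute myeloid leukaemia line with the AML1-ETO (RUNX1-RUNX1T1) fusion, and the 6 members differed by label only in hairpin and number. The controls (shControl) are labelled EV, which the labels do not spell out, while the text of the study writes of a control shRNA. A single cell line is a limited model, since every sample descends from the cells of the same leukaemia. The labels do not say what the numbers stand for. The study calls the replicates of each group biological, but the labels do not say whether the samples came from separate cultures, and a p-value here measures the spread between these samples. The extraction text in the labels describes sorted marrow cells, whereas the cell line field and the titles give SKNO-1.

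An shRNA is processed in the cell to a small RNA that pairs with its target message and lowers it. Besides the target, each hairpin can pair with other messages through its seed, integrates at its own sites in the genome, and is expressed in a pool of cells with a history of its own. Setting hairpins against the same target beside each other is therefore a usual check in knockdown work. ASXL2 is a chromatin protein of the ASXL family, whose members bind the deubiquitinase BAP1 and act on ubiquitinated histone H2A.

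Each value was a count of reads per gene, shown as CPM, the count scaled to the effective size of its library. The 6 members held 27714431 to 32648040 counts with 1 RefSeq transcript per gene, and a count of 3, taken as the floor, was worth 0.0919 to 0.108 CPM in them. Of 25680 gene symbols, 14199 had enough counts to be tested. The defining genes of the line were mostly present, on the scale of the plain library total: MPO, a granule enzyme of myeloid cells, stood at 6477 to 10006 CPM over the 9 samples, KIT at 241 to 430 CPM and CD33 at 88.2 to 111 CPM. CD34 was at 0.306 CPM or less. Of the markers of other cells, 3 of 14 genes for T and NK cells passed the filter, 5 of 10 for B cells, 5 of 11 for megakaryocytes, 4 of 10 for monocytes and 2 of 15 for stromal and epithelial cells. Of their members, CD3E, CD3G, MS4A1, PF4, FCN1 and COL1A2 had no count in any sample, but others were clearly counted. Over the 9 samples CD4 was at 383 to 630 CPM and the B cell gene CD79B at 45.4 to 63.1 CPM. The megakaryocyte gene ITGA2B was at 56.4 to 139 CPM and the monocyte gene LYZ at 46.6 to 78.8 CPM. Among these lists, NKG7 (log2 difference 0.75), ITGA2B (0.47) and CSF1R (0.55) were higher with shASXL2-3 at an unadjusted p under 0.05, PAX5 (-0.64) was lower, and none passed adjustment. Without the library labelled shASXL2-3 number 1, described next, no marker of megakaryocytes or monocytes had an unadjusted p under 0.05, while 1 for T and NK cells was higher and 1 for B cells lower. The summed level of the T and NK cell list, nearly all of it CD4, was 386 to 559 CPM with shASXL2-2 and 418 to 633 CPM with shASXL2-3. It was 65.4 to 76.1 against 58.8 to 64.6 CPM for B cells, 64.5 to 76.3 against 68.8 to 150.4 CPM for megakaryocytes, 60.3 to 65.4 against 54.1 to 81.4 CPM for monocytes, and 3.36 to 4.45 against 3.34 to 5.99 CPM for stromal and epithelial cells. Most of the B cell, megakaryocyte and monocyte sums came from CD79B, ITGA2B and LYZ, so these sums are not levels of those cells. The part of other cells in the results was not tested. In bulk RNA, fewer cells of a kind and less RNA per cell cannot be told apart. The library labelled shASXL2-3 number 1 stood apart from the other 8, at -58.6 on the first principal component where they lay between -24.9 and 25.0. The count of genes that differed and those of the lists that lean are given with and without it.

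MIR30A, which encodes the precursor of miR-30a, was the single microRNA gene among those that differed, and its sequences are shown because the counts fall on this short precursor. They come from RefSeq (GRCh38.p14), minus strand, with the hairpin at chr6:71403551-71403621. Capitals mark both mature arms in the hairpin and the seed (bases 2 to 8) in each mature form.
MIR30A hairpin: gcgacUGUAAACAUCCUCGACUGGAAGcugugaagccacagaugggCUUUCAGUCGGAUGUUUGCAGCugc
hsa-miR-30a-5p: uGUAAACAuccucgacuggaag
hsa-miR-30a-3p: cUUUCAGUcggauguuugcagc
The arms have different seeds. The deposited counts refer to the 71 bases of the precursor at chr6:72113254-72113324 on hg19 in libraries made from messenger RNA, so they do not measure the mature microRNA.

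The first question was whether both hairpins left the same amount of their target. ASXL2 was at 30.4, 36.2 and 36.2 CPM with shASXL2-2, against 26.9, 29.1 and 41.1 CPM with shASXL2-3 in the samples numbered 1, 13 and 25. The values of the hairpins overlapped, and shASXL2-3 held both the lowest sample and the highest. Its log2 difference, shASXL2-3 minus shASXL2-2, was -0.10 (SE 0.10, 95% interval -0.32 to 0.12, edgeR adjusted p 0.706), and a two-sided exact permutation test of 3 against 3 samples gave p = 0.8, where the smallest possible is 0.1. The interval leaves room for a target level that differs between hairpins by up to 0.32 on the log2 scale. Without both samples numbered 13 the difference was 0.02.

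No other member of the ASXL family or of its BAP1 complex passed the test between hairpins. ASXL1, a paralogue, was at 136, 141 and 128 CPM with shASXL2-2, against 139.6, 127 and 141 CPM with shASXL2-3, a log2 difference of 0.01 (SE 0.07, adjusted p 0.969). ASXL3 had a single count in a single sample and was not tested. Of 12 tested proteins of the ASXL and BAP1 list, none passed an adjusted p of 0.05, and FOXK2, a forkhead factor of the complex, was the 1 member with an unadjusted p under 0.05, at -0.18 (SE 0.07). Polycomb repressive complex 2, which places H3K27 methylation, had 0 of 11 members under an unadjusted p of 0.05. The fusion partners RUNX1 and RUNX1T1 gave -0.02 (SE 0.08, adjusted p 0.941) and 0.03 (SE 0.08, adjusted p 0.910). In their list with the corepressors 2 of 18 members were higher and 1 lower at that unadjusted threshold. Among all genes tested, 7.28% were higher and 4.64% lower at it, and the counts of these lists are to be read against those shares. TET2, a DNA demethylating enzyme, gave 0.08 (SE 0.09, adjusted p 0.717).

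Across all genes, 15 differed between the hairpins at an adjusted p under 0.05 in the fit that pairs the samples by number (edgeR), or 0.106% of the genes tested. Of these, 9 were higher with shASXL2-3 (0.0634%) and 6 lower (0.0423%). In the same fit, 1693 genes (11.9%) had an unadjusted p under 0.05, with 1034 higher (7.28%) and 659 lower (4.64%). Without the pairing, 0 genes passed the adjusted threshold, 293 (2.06%) had an unadjusted p under 0.05, and DESeq2 without the pairing called 11 genes, of which 8 were among the 15. The count of 15 moved with single libraries. It was 103 without shASXL2-3 number 1 and 257 without shASXL2-3 number 13, which kept 14 and 15 of the 15. It fell to 0 without shASXL2-3 number 25 and to 1, 1 and 0 without shASXL2-2 number 1, 13 and 25. Control samples enter the fit through the estimate of the spread, and there were 25 calls without shControl number 1 and 1 without shControl number 25. The smallest difference among the 15 was 1.46-fold.

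**Figure D1:**
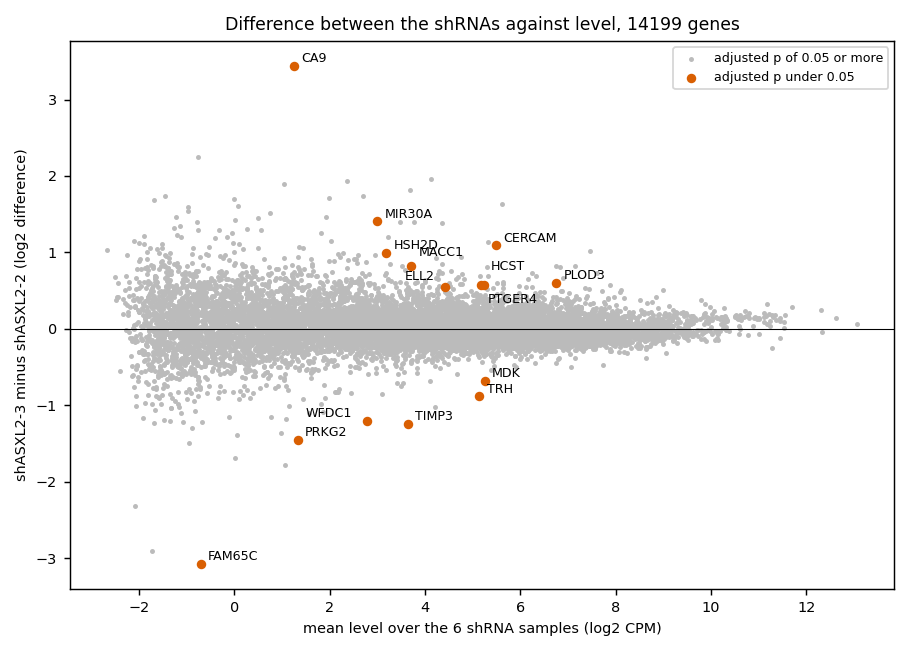
Each point is 1 of 14199 genes, with its mean level over the 6 hairpin samples (log2 CPM) on the x axis and the log2 difference, shASXL2-3 minus shASXL2-2, on the y axis. The 15 genes with an adjusted p under 0.05 are named. They reach from FAM65C at -3.07 to CA9 at 3.44, and most genes lie close to 0.

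The differences within the 3 pairs, which share no sample with each other, were weakly correlated across genes. The standard deviation of the log2 differences over all genes was 0.444 in the pair numbered 1, 0.261 in number 13 and 0.314 in number 25. In the pair numbered 1, 605 genes differed by more than 1 on the log2 scale, 485 of them higher with shASXL2-3, against 127 in number 13 (33 higher) and 242 in number 25 (113 higher). Across genes, Pearson's r of the differences was 0.013 between numbers 1 and 13, 0.197 between 1 and 25, and 0.183 between 13 and 25, where genes are not independent replicates. When the 100 genes with the smallest p were taken from the other pairs, 86 had the same direction in the pair numbered 1, 74 in number 13 and 95 in number 25. The corresponding shares over all genes were 57.2%, 49.9% and 61.5%.

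**Figure D2:**
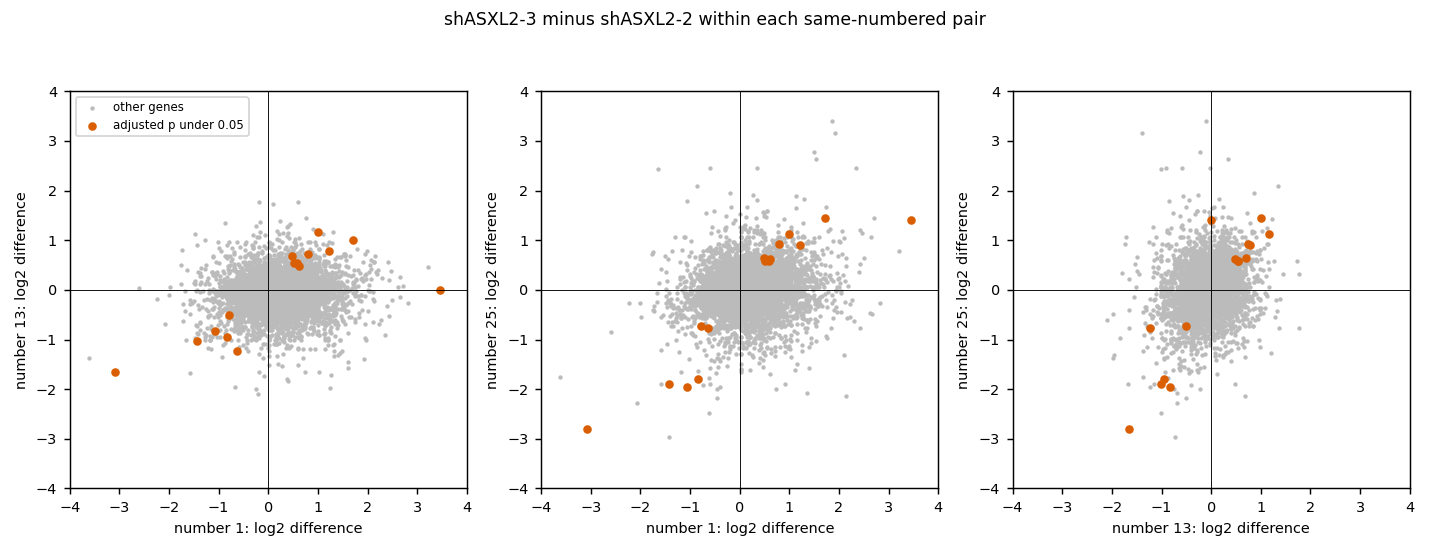
Log2 differences (shASXL2-3 minus shASXL2-2) within one same-numbered pair against those within another, 1 point per gene, for numbers 1 and 13, 1 and 25, and 13 and 25. Orange points are the 15 genes with an adjusted p under 0.05. The clouds of all genes have little slope (r of 0.013, 0.197 and 0.183), while the orange points lie in the lower left and upper right, apart from CA9, which was at 0 in the pair numbered 13. The orange genes were chosen by a test on these same pairs, which favours such places.

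Among the 15 genes, the groups did not overlap in 10, with 5 higher and 5 lower with shASXL2-3. Among all genes tested 4.66% did not overlap, with 2.23% higher and 2.44% lower. Of the 15, 14 went the same way in all 3 pairs. Among all genes tested, 16.3% were higher in all 3 pairs and 14.8% lower in all 3. The 15 were chosen by a test on these same pairs, so their agreement between pairs is a description. TRH, HSH2D, HCST, CA9 and PTGER4 overlapped between hairpins. In the fit without pairing each of the 15 had an adjusted p of 0.998. Of these genes, 7 had more than 1 RefSeq transcript, and all 20 further transcripts had the same direction as the one used. Transcripts of a gene share most of their reads, so this direction is not independent evidence.

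Both collagen-related genes that passed were higher with shASXL2-3. CERCAM (chr9:131174030-131199630 on hg19), related in sequence to the collagen galactosyltransferases, was at 36.9, 27.6 and 22.3 CPM with shASXL2-2, against 73.9, 61.9 and 49.0 CPM with shASXL2-3. Every shASXL2-3 sample exceeded every shASXL2-2 sample, and the log2 difference was 1.10 (SE 0.11, adjusted p 0.0106), the smallest p of all genes. PLOD3 (chr7:100849258-100861701), which hydroxylates and glycosylates lysines of collagen, was at 95.4, 75.5 and 86.1 CPM with shASXL2-2, against 134, 122 and 134 CPM with shASXL2-3. The groups again did not overlap, at 0.60 (SE 0.09, adjusted p 0.0407).

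The genes lower with shASXL2-3 are given first for those whose products are secreted. TIMP3 (chr22:33197691-33259028), an inhibitor of metalloproteinases held in the extracellular matrix, was at 16.2, 19.0 and 16.9 CPM with shASXL2-2, against 7.70, 10.7 and 4.33 CPM with shASXL2-3. The highest shASXL2-3 sample was well under the lowest shASXL2-2 sample, with a log2 difference of -1.24 (SE 0.19, adjusted p 0.0476). WFDC1 (chr16:84328452-84363450), a secreted protein with a protease inhibitor fold, was at 6.86, 10.7 and 11.1 CPM with shASXL2-2, against 3.81, 5.53 and 3.13 CPM with shASXL2-3. It did not overlap either and gave -1.20 (SE 0.18, adjusted p 0.0477). MDK (chr11:46402306-46405387), which encodes the growth factor midkine, was at 55.1, 39.5 and 46.1 CPM with shASXL2-2, against 32.0, 27.9 and 27.8 CPM with shASXL2-3. Midkine was lower in each shASXL2-3 sample than in any with shASXL2-2, at -0.68 (SE 0.09, adjusted p 0.0363). TRH (chr3:129693531-129696778), the precursor of thyrotropin-releasing hormone, was at 77.7, 39.2 and 17.9 CPM with shASXL2-2, against 49.9, 16.7 and 10.4 CPM with shASXL2-3. It varied more between numbers than between hairpins, so the groups overlapped, but it was lower in all 3 pairs, at -0.88 (SE 0.11, adjusted p 0.0269).

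Next come genes of receptors, adaptors and kinases. HCST (chr19:36393431-36395279), the adaptor DAP10 that carries signals from NKG2D, was at 38.7, 29.8 and 21.8 CPM with shASXL2-2, against 59.4, 41.6 and 33.6 CPM with shASXL2-3. It was higher in each pair while the groups overlapped, at 0.58 (SE 0.08, adjusted p 0.0407). Its neighbour TYROBP, which encodes the related adaptor DAP12, gave 0.55 (SE 0.13, adjusted p 0.146). The lowest coordinates of these neighbours lie 1872 bases apart. HSH2D (chr19:16244838-16269386), an adaptor with an SH2 domain, was at 9.51, 4.58 and 3.71 CPM with shASXL2-2, against 22.2, 7.87 and 6.99 CPM with shASXL2-3. Number 1 was the highest under both hairpins, and the log2 difference was 0.99 (SE 0.13, adjusted p 0.0363). PTGER4 (chr5:40680017-40693837), the prostaglandin E2 receptor EP4, was at 37.4, 26.1 and 23.4 CPM with shASXL2-2, against 56.2, 38.1 and 34.9 CPM with shASXL2-3. It was higher in every pair, with overlapping groups, at 0.57 (SE 0.09, adjusted p 0.0476). PRKG2 (chr4:82008524-82136376), a kinase activated by cyclic GMP, was at 3.78, 3.95 and 3.29 CPM with shASXL2-2, against 1.36, 1.91 and 0.837 CPM with shASXL2-3. This was a low level without overlap, at -1.45 (SE 0.20, adjusted p 0.0375).

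The remaining genes belonged to none of these groups. MIR30A, whose precursor is printed above, was at 3.38, 4.64 and 5.13 CPM with shASXL2-2, against 11.2, 9.39 and 14.2 CPM with shASXL2-3, from 101, 148 and 148 counts against 329, 304 and 389 counts. The lowest shASXL2-3 sample held more than the highest shASXL2-2 sample, and the log2 difference was 1.41 (SE 0.18, adjusted p 0.0307). MACC1 (chr7:20174278-20257027), a regulator of the receptor gene MET, was at 12.4, 8.43 and 7.56 CPM with shASXL2-2, against 21.6, 14.05 and 14.4 CPM with shASXL2-3. Its groups did not overlap, at 0.82 (SE 0.10, adjusted p 0.0269). ELL2 (chr5:95220802-95297555), an elongation factor of RNA polymerase II, was at 17.8, 19.3 and 14.9 CPM with shASXL2-2, against 25.5, 28.1 and 22.3 CPM with shASXL2-3. It did not overlap either and gave 0.55 (SE 0.08, adjusted p 0.0438).

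Low counts lay behind the widest differences. FAM65C, also known as RIPOR3, had 49, 17 and 33 counts with shASXL2-2 and 4, 4 and 3 counts with shASXL2-3. All 3 shASXL2-3 samples were near the floor, and the summed counts, 99 against 11, gave a ratio of 9.03 (95% exact interval 4.83 to 18.7, counting error only). The fitted log2 difference was -3.07 (SE 0.38, adjusted p 0.0269). CA9 (chr9:35673925-35681156), carbonic anhydrase IX, had 34, 0 and 0 counts with shASXL2-2 and 385, 0 and 3 counts with shASXL2-3. Its fitted difference of 3.44 (SE 0.52, adjusted p 0.0476) rested on the samples numbered 1, and it was 0.64 (adjusted p 0.961) without shASXL2-3 number 1. In the pair numbered 13 neither sample had a count.

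**Figure D3:**
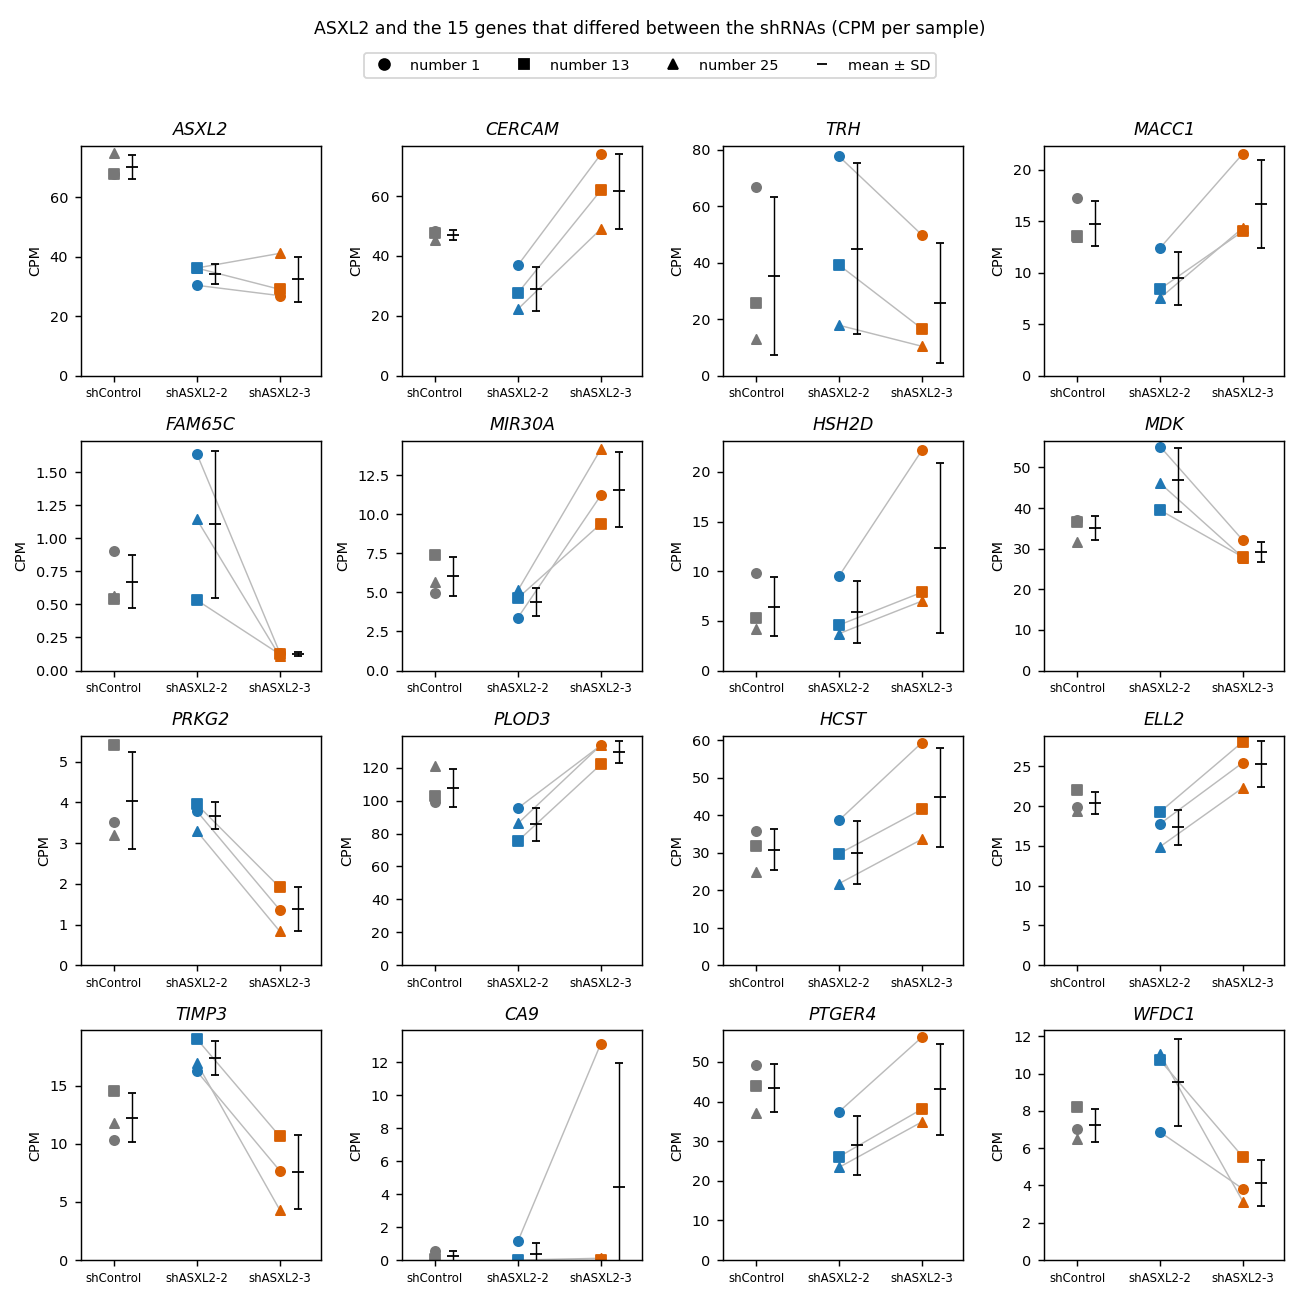
CPM of ASXL2 and of the 15 genes with an adjusted p under 0.05, 1 panel per gene, in the 3 samples of shControl, shASXL2-2 and shASXL2-3. Symbols give the sample number, grey lines join same-numbered samples of the hairpins, and bars give the mean ± SD (n = 3). ASXL2 overlaps between hairpins, CERCAM and MIR30A do not, and CA9 is high in shASXL2-3 number 1 alone.

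The next 10 genes in order of p, with all pairs one way and a mean of at least 1 CPM, had adjusted p values of 0.0577 to 0.0744 and did not pass. Of these, 4 were higher with shASXL2-3. SLC25A1, the mitochondrial citrate carrier, was at 198, 108 and 138 CPM with shASXL2-2, against 291, 202 and 232 CPM with shASXL2-3, a log2 difference of 0.73 (SE 0.11) without overlap. The membrane protein MYADM gave 0.47 (SE 0.07), the diamine oxidase AOC1 0.60 (SE 0.10) and C15orf57 0.60 (SE 0.10). On the lower side, TAL1, a basic helix-loop-helix factor of blood stem cells and erythroid cells, was at 49.9, 48.3 and 55.5 CPM with shASXL2-2, against 35.6, 38.4 and 35.7 CPM with shASXL2-3. The groups did not overlap, and the log2 difference was -0.49 (SE 0.08, adjusted p 0.0744). The sialyltransferase ST8SIA6 gave -0.70 (SE 0.11), the glycosyltransferase B4GALNT3 -1.36 (SE 0.23), CTXN1 -0.71 (SE 0.12), the mTOR inhibitor DEPTOR -0.39 (SE 0.07) and MARCKSL1 -0.47 (SE 0.08).

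Gene lists were described by how many tested members had an unadjusted p under 0.05 in each direction, to be read against 7.28% higher and 4.64% lower among all genes, whose median log2 difference was 0.00. Members of a list are not independent, so the counts are descriptions and not tests. Counts without shASXL2-3 number 1 come from a separate fit. In that fit 1317 of 14291 genes tested had an unadjusted p under 0.05 in either direction, and 4.88% of all genes were higher. In the fit without pairing, where 1.17% of all genes were higher and 0.894% lower, no list but the collagens had more than 2 members in either direction.

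**Figure D4:**
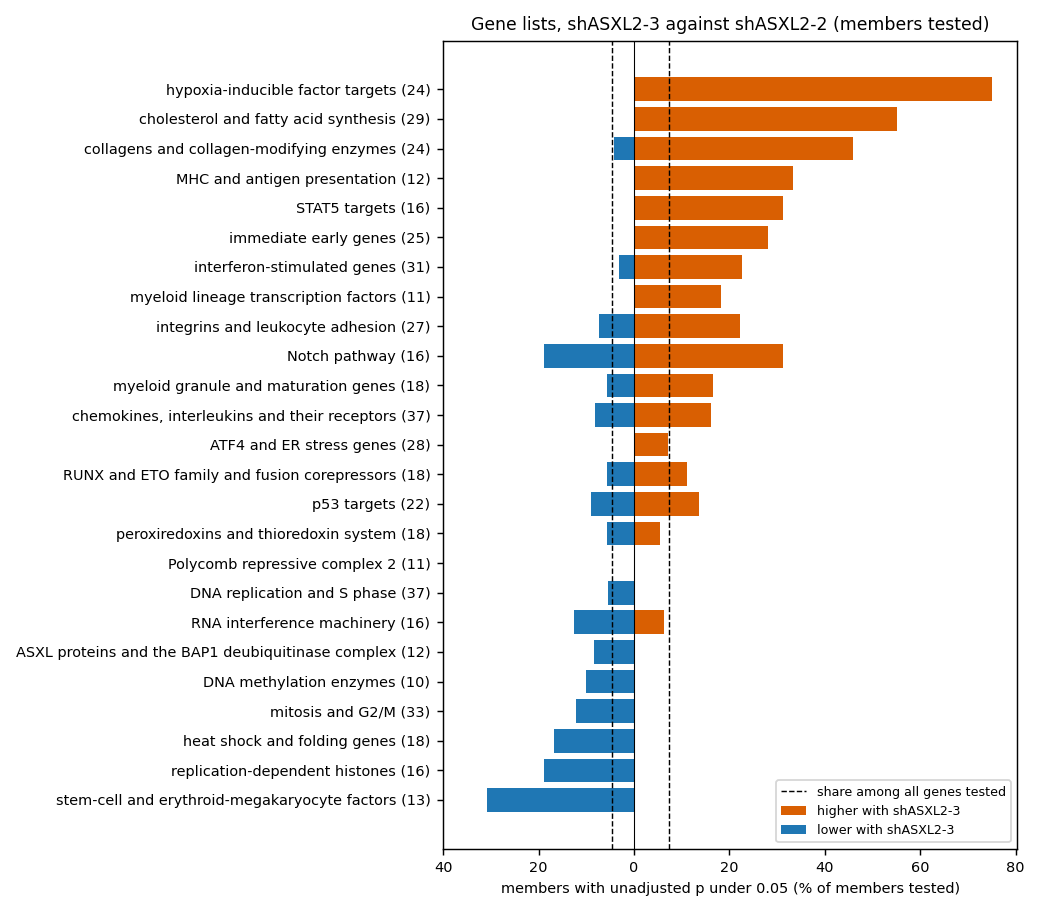
Share of tested members of each gene list with an unadjusted p under 0.05, higher with shASXL2-3 to the right and lower to the left (percent of members), for the 25 lists with at least 10 tested members, whose number is in brackets. Dashed lines mark the shares among all genes, 7.28% and 4.64%. Targets of hypoxia-inducible factor stand farthest right at 75.0%, and stem-cell and erythroid-megakaryocyte factors farthest left at 30.8%.

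Targets of the hypoxia-inducible factors were the list with the widest lean. These factors are stabilized when oxygen is short and switch on glycolysis, pH control and mitophagy genes. Of 24 tested members, 18 were higher with shASXL2-3 and 0 lower at an unadjusted p under 0.05, and the median log2 difference was 0.36. Only CA9 passed adjustment. P4HA1, which hydroxylates prolines of collagen, was at 203, 41.7 and 47.2 CPM with shASXL2-2, against 407, 48.4 and 105 CPM with shASXL2-3, with a log2 difference of 0.82 (SE 0.17, adjusted p 0.125). PFKFB4, a regulator of glycolysis, was at 66.5, 2.98 and 3.57 CPM with shASXL2-2, against 194, 3.77 and 22.6 CPM with shASXL2-3, at 1.64 (SE 0.37, adjusted p 0.138). Number 1 was by far the highest under both hairpins. The peptide hormone precursor ADM was at 3.88, 1.54 and 1.56 CPM with shASXL2-2, against 11.95, 2.13 and 3.35 CPM with shASXL2-3, at 1.15 (SE 0.25, adjusted p 0.125).

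The lean was not shared by all pairs. The median difference of the list was 0.64 in the pair numbered 1, 0.01 in number 13 and 0.40 in number 25, and 24, 12 and 24 of the 24 members were higher in them. The summed level of the list, per library total, was 8888, 5658 and 6140 CPM with shASXL2-2, 12998, 5812 and 7286 CPM with shASXL2-3, and 7779, 5619 and 6094 CPM in shControl. The sample numbered 1 was thus the highest of its group in each of the 3 groups. Without shASXL2-3 number 1, 9 of 24 members were higher against 4.88% of all genes, and without the pairing 1 was, against 1.17%.

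The factors bind a core of ACGTG or GCGTG, of which only the form ACGTG was searched for. The promoters of the 4 members with the smallest p, named above, are printed as the 250 bases before the start of the gene (RefSeq, GRCh38.p14). Capitals mark CACGT, which is ACGTG read on the other strand. CA9 lies at chr9:35673678-35673927 (plus strand), P4HA1 at chr10:73096867-73097116 (minus), PFKFB4 at chr3:48556804-48557053 (minus) and ADM at chr11:10304823-10305072 (plus).
CA9 promoter: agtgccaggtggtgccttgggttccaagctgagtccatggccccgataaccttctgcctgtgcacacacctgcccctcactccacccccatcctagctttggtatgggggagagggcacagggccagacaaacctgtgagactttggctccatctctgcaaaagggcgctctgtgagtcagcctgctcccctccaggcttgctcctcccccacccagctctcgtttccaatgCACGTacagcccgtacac
P4HA1 promoter: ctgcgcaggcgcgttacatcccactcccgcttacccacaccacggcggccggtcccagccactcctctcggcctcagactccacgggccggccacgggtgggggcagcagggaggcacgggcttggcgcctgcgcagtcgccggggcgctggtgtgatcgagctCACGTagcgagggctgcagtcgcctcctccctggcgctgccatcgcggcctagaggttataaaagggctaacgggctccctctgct
PFKFB4 promoter: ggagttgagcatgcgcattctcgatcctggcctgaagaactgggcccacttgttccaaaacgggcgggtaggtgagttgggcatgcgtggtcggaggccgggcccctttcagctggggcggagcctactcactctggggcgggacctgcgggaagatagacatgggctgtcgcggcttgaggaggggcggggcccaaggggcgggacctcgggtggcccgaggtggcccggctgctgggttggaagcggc
ADM promoter: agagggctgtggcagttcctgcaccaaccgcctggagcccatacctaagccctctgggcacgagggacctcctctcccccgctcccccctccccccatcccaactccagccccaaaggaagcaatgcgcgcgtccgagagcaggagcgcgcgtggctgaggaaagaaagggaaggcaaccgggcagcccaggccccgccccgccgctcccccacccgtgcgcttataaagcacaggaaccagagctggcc
The promoters of CA9 and P4HA1 held the form ACGTG once each in these 250 bases, and those of PFKFB4 and ADM did not hold this form. The form GCGTG, which was not marked, can be read in the printed PFKFB4 and ADM sequences. On either strand ACGTG lay in 17 of 28 promoter windows of 300 bases (60.7%) that belong to tested members, and in 21.4% of all 35116 windows in the table. The list was made of known targets of factors that bind this core, so the higher share follows from how it was made and does not bear on the difference between hairpins. ACGTG also lies inside CACGTG, the motif of other helix-loop-helix factors, and a match does not show binding.

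Genes of cholesterol and fatty acid synthesis, which are driven by SREBP factors, came next. Of 29 tested members, 16 were higher and 0 lower at an unadjusted p under 0.05, none passed adjustment, and the median log2 difference was 0.25. HSD17B7, an enzyme of the late cholesterol pathway, was at 17.2, 8.62 and 11.8 CPM with shASXL2-2, against 28.9, 10.8 and 14.9 CPM with shASXL2-3, at 0.49 (SE 0.15, adjusted p 0.263). The sterol demethylase CYP51A1 gave 0.26 (SE 0.09) and the sterol carrier STARD4 0.53 (SE 0.20), each with overlapping groups. Medians by pair were 0.41, 0.05 and 0.25 for numbers 1, 13 and 25. Without shASXL2-3 number 1, 1 of 29 members was higher, against 4.88% of all genes, and without the pairing 0 were.

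Collagens and the enzymes that modify them held both CERCAM and PLOD3. Of 24 tested members, from 55 listed, 11 were higher and 1 lower at an unadjusted p under 0.05, with 2 higher past adjustment and a median log2 difference of 0.28. P4HA1, named above, is in this list too. The lower member was COL14A1, a fibril-associated collagen, at 5.02, 5.36 and 3.74 CPM with shASXL2-2, against 1.80, 2.90 and 2.37 CPM with shASXL2-3. Its groups did not overlap, at -0.98 (SE 0.21, adjusted p 0.125). The medians by pair were 0.56, 0.19 and 0.22, with 20, 15 and 20 of 24 members higher. Here the count held without shASXL2-3 number 1, at 10 higher and 1 lower, and without the pairing it was 5 higher and 1 lower, against 1.17% and 0.894% of all genes. The list was written with earlier results of these data known and holds genes that passed in this contrast. Its lean is therefore a description and not support for a difference in collagen genes. The summed level was 2463, 2331 and 2213 CPM with shASXL2-2, 3070, 2639 and 2633 CPM with shASXL2-3, and 2305, 2105 and 2405 CPM in shControl. All 3 sums with shASXL2-3 lay above the other 6, but P4HB alone, at 1239 to 1713 CPM over the 9 samples, made up most of them.

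**Figure D5:**
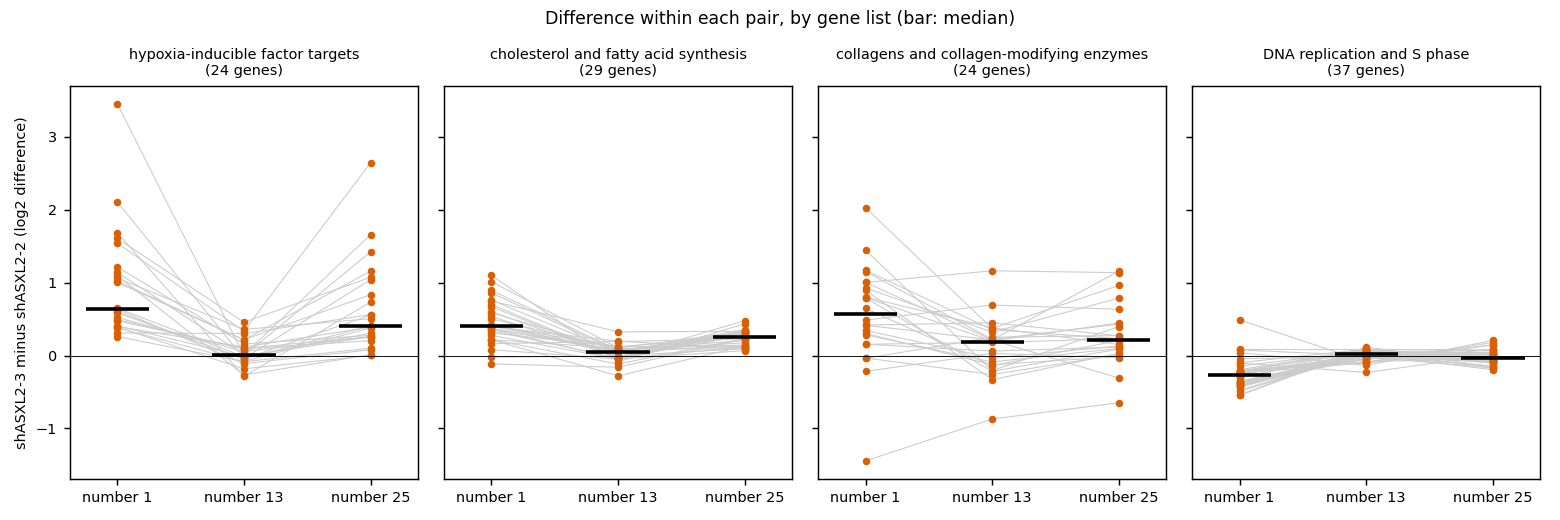
Log2 difference (shASXL2-3 minus shASXL2-2) of each tested member within the pairs numbered 1, 13 and 25, for targets of hypoxia-inducible factor, cholesterol and fatty acid synthesis, collagens and their enzymes, and DNA replication. Grey lines join a gene and black bars are medians. The first 2 lists have medians of 0.64 and 0.41 in number 1 and 0.01 and 0.05 in number 13, while collagens keep 0.19 in number 13 and replication genes have -0.26 in number 1.

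Immediate early genes, the first to respond to growth signals, had 7 of 25 members higher and 0 lower, with a median of 0.26. SPRED2, which the list also holds although it is an inhibitor of the MAPK pathway, gave 0.29 (SE 0.08) without overlap. FOSB and FOS, which pair with JUN proteins, gave 0.79 (SE 0.21) and 0.65 (SE 0.18), and FOS was at 5.36, 2.01 and 24.5 CPM with shASXL2-2, against 6.54, 2.01 and 55.2 CPM with shASXL2-3, so that number 25 was the highest under both hairpins. KLF10 gave 0.53 (SE 0.17). Without shASXL2-3 number 1, 5 members were higher and 2 lower. Targets of STAT5, which relays cytokine signals, had 5 of 16 higher and 0 lower (2 and 0 without that library), with SOCS2 at 0.35 (SE 0.11) and OSM at 0.35 (SE 0.11).

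Hairpins can set off the interferon response and load the RNA interference machinery, so both were examined. Of 31 interferon-stimulated genes, 7 were higher and 1 lower, with a median of 0.17. The membrane proteins IFITM3 and IFITM2, close paralogues that can share reads, gave 0.48 (SE 0.12) and 0.30 (SE 0.10), and IFIT5 gave 0.38 (SE 0.14). ISG15, a ubiquitin-like protein, went the other way, at 2.54, 2.60 and 2.43 CPM with shASXL2-2, against 1.29, 1.88 and 1.67 CPM with shASXL2-3. Its groups did not overlap, at -0.64 (SE 0.20, adjusted p 0.266). Among 16 genes of the RNA interference machinery, 1 was higher and 2 lower, namely TNRC6B at 0.20 (SE 0.09), TNRC6C at -0.26 (SE 0.09) and DGCR8 at -0.18 (SE 0.07). Of 12 genes of antigen presentation by MHC, 4 were higher and 0 lower, led by HLA-B at 0.66 (SE 0.20), with CD74 at 0.38 (SE 0.15) and HLA-C at 0.35 (SE 0.15). The HLA genes are so alike that reads may be split between them. Without shASXL2-3 number 1, these lists had 2 and 1 members higher.

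Stem-cell and erythroid-megakaryocyte factors leaned lower with shASXL2-3. Of 13 tested members, 4 were lower and 0 higher, against 4.64% lower among all genes, though the median was -0.06. Besides TAL1, these were its partners in erythroid gene control. GATA1 was at 5.96, 4.83 and 5.82 CPM with shASXL2-2, against 4.26, 3.52 and 1.78 CPM with shASXL2-3, without overlap, at -0.82 (SE 0.22, adjusted p 0.202). Its cofactor ZFPM1 gave -0.40 (SE 0.09) and the erythroid factor KLF1 -0.46 (SE 0.20). Erythroid and globin genes themselves had 1 higher and 1 lower of 7 tested. Without shASXL2-3 number 1, 3 of the 13 factors were lower, and without the pairing 2 were.

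Of 11 myeloid transcription factors, 2 were higher, CEBPD at 0.29 (SE 0.08) and EGR1 at 0.32 (SE 0.11). Granule and maturation genes had 3 higher and 1 lower of 18. The proteoglycan SRGN was at 222, 227 and 195 CPM with shASXL2-2, against 299, 327 and 238 CPM with shASXL2-3, without overlap, at 0.42 (SE 0.10, adjusted p 0.164), while CD68 gave 0.42 (SE 0.10), the cystatin CST7 0.50 (SE 0.15) and neutrophil elastase ELANE -0.26 (SE 0.11). The myeloid lists had more members higher without shASXL2-3 number 1, at 5 of the factors and 7 of the granule genes. Over all genes in that fit, 1317 of 14291 had an unadjusted p under 0.05 in either direction.

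Of 16 tested members of the Notch pathway, 5 were higher and 3 lower at an unadjusted p under 0.05, and none passed adjustment. The receptor NOTCH2 was at 132, 125 and 112 CPM with shASXL2-2, against 177, 146 and 174 CPM with shASXL2-3. Its groups did not overlap, at 0.43 (SE 0.08, adjusted p 0.0884), although reads may be shared with its partial copy NOTCH2NL. The ligand JAG2 gave 0.66 (SE 0.20), while the ligand DLL3 and the target HES1 gave -0.48 (SE 0.13) and -0.67 (SE 0.20). Integrins and leukocyte adhesion genes had 6 higher and 2 lower of 27. The selectin ligand SELPLG gave 0.76 (SE 0.13), the integrin chain ITGA6 0.32 (SE 0.08) and ITGA9 -0.56 (SE 0.15). Chemokines, interleukins and their receptors had 6 higher and 3 lower of 37. The receptors IL1RL1 and IL18R1, neighbours whose annotated spans overlap on chromosome 2, gave -1.39 (SE 0.36) and -1.09 (SE 0.30), IL27RA gave -0.30 (SE 0.08), and CSF2RB, the signalling chain of the GM-CSF receptor, gave 0.29 (SE 0.09). The Notch, adhesion and chemokine lists had 3, 3 and 3 members higher and 3, 2 and 4 lower without shASXL2-3 number 1.

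Genes of cell division had no member higher at the unadjusted threshold. DNA replication had 2 lower of 37, the replication factor GINS2 at -0.18 (SE 0.08) and the histone message binder SLBP at -0.18 (SE 0.07), with a list median of -0.11. Mitosis had 4 lower of 33, among them HMMR at -0.20 (SE 0.06) and CDC20, an activator of the anaphase complex, at -0.23 (SE 0.09), with a list median of -0.10. In these lists 0 and 1 members were lower without shASXL2-3 number 1. By pair, the replication genes had medians of -0.26, 0.02 and -0.04 for numbers 1, 13 and 25. Replication-dependent histones, most of whose messages lack a poly(A) tail, had 0 higher and 3 lower of 16, with HIST2H2BE at -0.58 (SE 0.15), HIST1H2BK at -0.41 (SE 0.12) and HIST1H3H at -0.91 (SE 0.34). Their median was -0.23, with -0.64, -0.37 and 0.04 by pair, and many of these genes are near-identical copies. Of 17 histones tested when shASXL2-3 number 1 was left out, 1 was higher and 3 lower.

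Stress and repair lists had no member past adjustment. The ATF4 and ER stress list had 2 higher and 0 lower of 28 at the unadjusted threshold. Heat shock genes had 0 higher and 3 lower of 18 (16.7%, against 4.64% of all genes), with medians of -0.41, 0.04 and -0.09 by pair, and included the chaperone cofactors DNAJB1 at -0.20 (SE 0.08) and CHORDC1 at -0.26 (SE 0.11). Targets of p53 had 3 higher and 2 lower of 22, among them DDB2 at 0.48 (SE 0.13) and BTG2 at 0.30 (SE 0.08). In the fit that left out shASXL2-3 number 1, the ATF4 list had 2 higher and 1 lower, heat shock 0 higher and 1 lower, and p53 targets 2 higher and 5 lower. These counts stand beside 1317 of 14291 genes with an unadjusted p under 0.05 in either direction in that fit. Peroxiredoxins and the thioredoxin system had 1 higher and 1 lower of 18, and DNA methylation enzymes 0 higher and 1 lower of 10, DNMT3B at -0.38 (SE 0.12).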

How the data were processed

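The authors deposited whole-number read counts per RefSeq transcript on hg19, 48104 rows per sample and not normalized. The submitters' processing notes name STAR, featureCounts and DESeq2 without versions, and the methods describe unstranded poly(A) libraries. Rows of 1 gene share reads (the sum over all rows was 2.24 times that over 1 row per gene), so each symbol was represented by its row with the highest total. Counts were tested with edgeR 4.0.16 (R 4.3.3): filterByExpr (minimum count 10, total 15), TMM scaling and a quasi-likelihood F test over all 9 samples, with group and replicate number as terms and 4 residual degrees of freedom. The contrast was shASXL2-3 minus shASXL2-2, with Benjamini-Hochberg adjustment over 14199 genes at 0.05. The standard error is the log2 difference divided by the square root of F. Samples were paired by number because the definition of the comparison asks for it. Same-numbered samples of the hairpins also deviated together from their group means (Pearson's r of 0.703, 0.541 and 0.605 across genes for numbers 1, 13 and 25). The fits were also run on simulated counts, whose outcome is not reported here. These counts were drawn independently from fitted means, without a library that stood apart like shASXL2-3 number 1. Members, gene lists and named genes were chosen with earlier results of these data known. A fixed set was named, with ASXL2, ASXL1, ASXL3, NOTCH2, TET2, RUNX1 and RUNX1T1, which the study mentions, and TAL1 and MIR30A. Named besides were every gene past the threshold, the next by p to 25, and at most 4 per list. Alternatives were no pairing, other scalings, filters, tools and transcript choices, a length and GC correction, and leaving out samples. Restriction to genes with a length, and DESeq2 without the block, were added after seeing the data. The floor and the exact interval of FAM65C cover counting error only, since reads carry no molecular identifiers. The interval of ASXL2 comes from the fit and includes the spread between samples. The hairpin sequences were not used here.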

Additional observations from a re-analysis of the deposited data

Results flagged for a closer look

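Each of the 15 genes is listed because the effect of one hairpin against shControl differed from that of the other by the test of the contrast itself. In 12 of them the mean effects lay on opposite sides of shControl, as they did in 29% of all genes tested. The 15 were chosen for a large difference between hairpins, which makes opposite sides likely, and the pair of comparisons shares its control samples, so the count is a description.

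Among genes higher with shASXL2-3, CERCAM (difference 1.10) was at 48.3, 47.6 and 45.3 CPM in shControl numbers 1, 13 and 25, and its log2 difference from shControl was -0.73 (SE 0.11) for shASXL2-2, against 0.36 (SE 0.10) for shASXL2-3. MIR30A (1.41) was at 4.98, 7.42 and 5.67 CPM in shControl, and the log2 differences were -0.46 (SE 0.19) and 0.94 (SE 0.18). For PLOD3 (0.60) they were -0.33 (SE 0.09) and 0.27 (SE 0.09), and for ELL2 (0.55) -0.24 (SE 0.08) and 0.31 (SE 0.08). In these 4 genes both hairpins moved by more than 2 standard errors, in opposite directions. MACC1 (0.82) differed from shControl mainly with shASXL2-2, at -0.66 (SE 0.10) against 0.16 (SE 0.10). HSH2D (0.99) and HCST (0.58) differed mainly with shASXL2-3, at -0.14 (SE 0.14) against 0.86 (SE 0.13) and -0.06 (SE 0.08) against 0.52 (SE 0.08).

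The genes lower with shASXL2-3 are given next. TRH (-0.88) had log2 differences from shControl of 0.42 (SE 0.10) for shASXL2-2, against -0.46 (SE 0.11) for shASXL2-3. For MDK (-0.68) they were 0.41 (SE 0.09) and -0.27 (SE 0.09), for TIMP3 (-1.24) 0.52 (SE 0.18) and -0.72 (SE 0.19), for WFDC1 (-1.20) 0.39 (SE 0.17) and -0.81 (SE 0.18), and for FAM65C (-3.07) 0.67 (SE 0.28) and -2.39 (SE 0.41).

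The other 3 had both means on the same side of shControl. PRKG2 (-1.45) was lower with shASXL2-3 at -1.56 (SE 0.20) and near shControl with shASXL2-2 at -0.11 (SE 0.18). PTGER4 (0.57) was lower with shASXL2-2 at -0.61 (SE 0.09) and near shControl with shASXL2-3 at -0.04 (SE 0.09). CA9 (3.44) had 0.65 (SE 0.65) and 4.10 (SE 0.56), resting on the samples numbered 1. The causes of these differences were not tested.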

How the results depend on the processing

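The count of 15 genes was 0 without the pairing, 162 with no filter on low counts, 152 with DESeq2, 6 with the sum over transcripts, and 10 to 15 under the other scalings, filters, tools and transcript choices. Leaving out samples moved it from 0 to 257. Of the 15 genes themselves, 0 passed without the pairing, 8 with the 6 hairpin samples alone, 5 with the sum over transcripts, 8 with DESeq2 without the block, and 0 to 15 when samples were left out. The difference of ASXL2 lay between -0.238 and 0.0165 on the log2 scale over the left-out samples, changing sign without both samples numbered 13, and passed no threshold. ASXL1 changed sign with the length and GC correction (-0.0106) and, like RUNX1 and RUNX1T1, when samples were left out (ASXL1 -0.0504 to 0.0923, RUNX1 -0.0810 to 0.0784, RUNX1T1 -0.0724 to 0.109). None of the 15 genes changed direction under any alternative in which they were tested. The alternatives reuse the samples by which the 15 were chosen, so a kept direction was likely. Depth limits FAM65C and CA9, which rest on few counts.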
